A study of Tupaia belangeri with 6 samples.

Results

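The 10 genes by which astrocytes handle glutamate, potassium, bicarbonate, water and urea were followed across the cell classes of the tree shrew hippocampus and between tree shrews (TSs) with Alzheimer's-like pathology (ALP) and control TSs. They were SLC1A2, SLC1A3, GLUL, SLC7A11, KCNJ10, SLC4A4, GJA1, GJB6, AQP4 and SLC14A1. Each was taken as the feature carrying that symbol in the count matrices, and 9 of the 10 were found among 83605 features. GJB6 had no row, so connexin 30, the second astrocyte connexin, was not analysed here. Single nuclei were sequenced from frozen hippocampus of 3 control TSs and 3 ALP TSs, with 1 library for each animal. All 6 animals were Tupaia belangeri (a small mammal close to primates) that had aged naturally. The labels name no transgene or drug for either group, and the study's methods describe brain imaging under isoflurane anesthesia, and an injected glucose tracer for PET, in its animals. The ALP TSs had been picked from a large colony for slow performance in a maze, and the control TSs, of matched age, for fast performance. The sex of the animal behind each library is not given in the labels, so sex could not enter any model.

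Astrocytes clear glutamate from the synapse with the transporters EAAT2 (SLC1A2) and EAAT1 (SLC1A3), and glutamine synthetase (GLUL) turns it into glutamine that is returned to neurons. Potassium released by firing neurons enters through the inward rectifier Kir4.1 (KCNJ10) and spreads between cells through connexin 43 (GJA1), while the sodium bicarbonate cotransporter NBCe1 (SLC4A4) moves acid equivalents. Aquaporin-4 (AQP4) passes water at the endfeet around vessels, SLC14A1 (UT-B) is a urea channel, and SLC7A11 (xCT) imports cystine for glutathione in exchange for glutamate.

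The study's limits on genes and mitochondrial reads kept 28233 of 37603 barcodes, between 1614 and 7022 nuclei in a library, with a median of 1502 to 2188 unique molecular identifiers (UMIs, 1 per captured RNA molecule) per kept nucleus. Control 2 stood apart, since 46.3% of its barcodes lay above the upper limit on genes against 16.0% to 27.7% in the other 5 libraries. Some of the results that moved with it are also given without it. Nuclei were clustered without the 10 genes and named from markers fixed separately from them, and a name such as Astro-like means a resemblance. Features annotated as antisense to the 10 genes were not kept out of the clustering. One of them, SLC1A3-AS-5, was among the leading genes of the main Astro-like cluster. A total of 3230 nuclei were Astro-like, and 10 of their 12 markers, including GFAP, SLC39A12 and GLI3, were between 2.01 and 43.6 times as high as in the other named nuclei. ALDOC was at 0 in Astro-like nuclei and ETNPPL at 0.932 CPM (counts scaled to a fixed total of UMIs per sum), so neither served as a marker. A pair of libraries shared at most 18 barcodes, or 0.465% of the smaller library.

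Of the 9 genes, 7 had their highest mean level in Astro-like nuclei, and GLUL and SLC7A11 did not. Since clusters were built from other genes of the same nuclei, levels across classes are a description and carry no test. Levels are given in CPM of the UMIs of a class in a library, as mean ± SD over the 6 libraries, and a gene is compared only with itself because transcript length was not in the files. These CPM use all UMIs of the sum as the library size and are a separate scale from the TMM-scaled CPM used with the tests. The 9 genes together took 7903 ± 818 CPM in Astro-like nuclei, 2555 ± 509 CPM in Epend-like (ependymal) nuclei and 161 ± 37.1 CPM in InN-like (inhibitory neuron) nuclei, the lowest of the 10 classes.

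**Figure D1:**
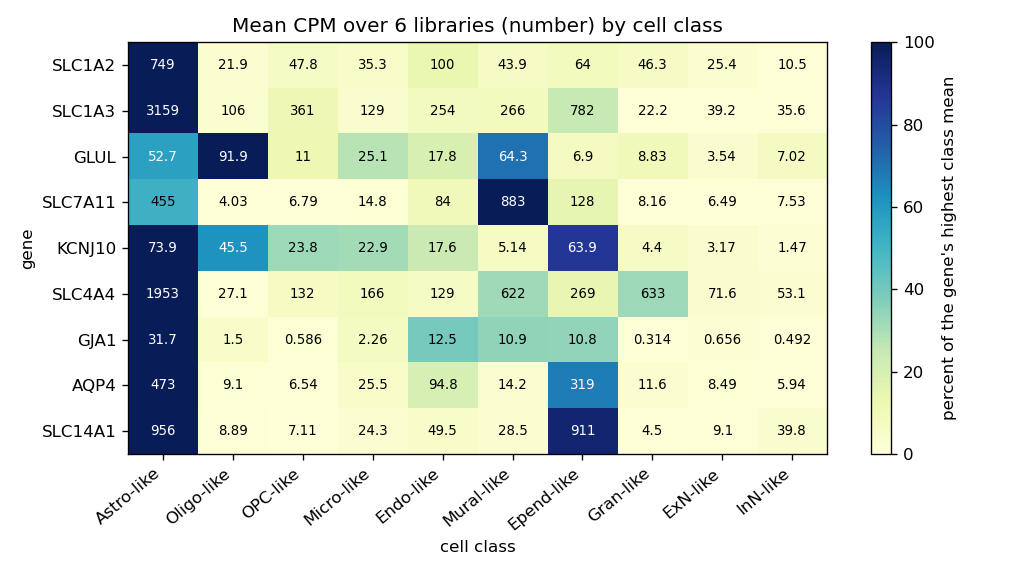
Mean CPM over 6 libraries of each gene (rows) in each of 10 cell classes (columns), with the number printed in each cell and the color giving the percentage of that gene's own highest class. Most rows are darkest in Astro-like nuclei, GLUL is darkest in Oligo-like nuclei (91.9 CPM) and SLC7A11 in Mural-like nuclei (883 CPM).

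SLC1A2 was high in Astro-like nuclei and low elsewhere. Its level was 749 ± 68.6 CPM, against 100.0 ± 45.6 CPM in Endo-like (endothelial) nuclei, the next class, and every library of the first lay above every library of the second. SLC1A3 reached 3159 ± 455 CPM in Astro-like nuclei, 782 ± 158 CPM in Epend-like nuclei and 361 ± 25.9 CPM in OPC-like nuclei (oligodendrocyte precursors), and these 3 classes did not overlap across libraries. In OPC-like nuclei 43.1% to 49.3% of nuclei held an SLC1A3 UMI, against 2.13% to 6.76% in Gran-like nuclei (dentate granule neurons), which should lack the gene and were the deeper of the pair, with library medians of 2422 to 3729 UMIs against 1475 to 2188.

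GLUL stood at 91.9 ± 31.7 CPM in Oligo-like (oligodendrocyte) nuclei, 64.3 ± 28.0 CPM in Mural-like nuclei (pericytes, smooth muscle and fibroblasts) and 52.7 ± 18.1 CPM in Astro-like nuclei. Within a library the Oligo-like level was 114% to 228% of the Astro-like level, so it was the higher of the pair in 6 of 6 libraries, although the ranges over libraries overlapped. Mural-like and Astro-like GLUL could not be ordered, with the first higher in 3 of 6 libraries. The annotation names 2 further copies of GLUL, and both held 0 UMIs.

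SLC7A11 was highest in Mural-like nuclei, at 883 ± 359 CPM against 455 ± 36.5 CPM in Astro-like nuclei, and the Mural-like level was the higher in 6 of 6 libraries. Astro-like nuclei in turn lay above Epend-like nuclei (128 ± 40.6 CPM) without overlap. The Mural-like signal came from 1 of 2 clusters. In a cluster of 106 nuclei led by LAMA2, COL1A2, SLC6A20, SLC22A6 and SLC13A4, 67.9% of nuclei held an SLC7A11 UMI and the pooled level was 1160 CPM, with libraries between 645 and 1612 CPM. In the other, of 86 nuclei led by ABCC9, RGS5 and TAGLN, known from pericytes and smooth muscle, only 1.16% did. COL1A2 and LAMA2 are matrix genes known from fibroblasts, and SLC6A20, SLC22A6 and SLC13A4 are membrane transporters.

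Among the ion carriers, KCNJ10 showed the smallest step between classes. It was 73.9 ± 20.9 CPM in Astro-like, 63.9 ± 36.4 CPM in Epend-like and 45.5 ± 13.8 CPM in Oligo-like nuclei, and neighbors in this order overlapped. Within libraries the Oligo-like level was nevertheless 56.9% to 71.7% of the Astro-like level, a narrow range.

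SLC4A4 was 1953 ± 133 CPM in Astro-like nuclei and did not overlap with any other class. Gran-like nuclei came next at 633 ± 117 CPM, 26.5% to 43.7% of the Astro-like level of the same library, and 66.3% to 79.5% of Gran-like nuclei held a UMI. The corresponding share was 7.84% to 29.2% in ExN-like nuclei (other excitatory neurons), with library medians of 3414 to 5475 UMIs against 2422 to 3729 in Gran-like nuclei. All 4 Gran-like clusters carried SLC4A4, from a pooled 394 CPM to 1261 CPM, the latter in a cluster of 361 nuclei whose leading genes included TIAM2, TEX13A and TLL1. That cluster held 5 granule and 4 ExN markers above the naming limits and scored slightly higher for ExN, so its Gran-like name is weak, and the other 3 clusters lay between 394 and 619 CPM. In Micro-like nuclei (microglia) 296 of the 399 SLC4A4 UMIs lay in a cluster of 179 nuclei led by GPNMB, where 69.3% of nuclei held a UMI at a pooled 461 CPM. The main Micro-like cluster of 1261 nuclei had a pooled 57.3 CPM. Nuclei of the GPNMB-led cluster were deeper (median 3650 against 1005 UMIs), and 10.6% of them were marked as likely doublets against 2.14% of the main cluster. They also held 6 granule markers above the naming limits, and at resolution 1 their counterpart of 212 nuclei, with 17.5% marked, was left without a class. The part of doublets in this level was not tested. SLC4A4 in Mural-like nuclei varied widely between libraries, at 622 ± 416 CPM, and in the LAMA2-led cluster 16.0% of nuclei held its UMIs.

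GJA1 was sparse, with 207 UMIs in all Astro-like nuclei. Its level was 31.7 ± 7.83 CPM there and 12.5 ± 17.8 CPM in Endo-like nuclei, where 6 UMIs were counted in all, and the 2 classes overlapped. In the neuronal classes it stayed at or below 0.656 CPM on average.

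AQP4 reached 473 ± 109 CPM in Astro-like and 319 ± 137 CPM in Epend-like nuclei, higher in the first in 5 of 6 libraries, with overlapping ranges. SLC14A1 did not separate these 2 classes, with 956 ± 420 CPM in Astro-like and 911 ± 415 CPM in Epend-like nuclei, and the Epend-like level of a library was 72.7% to 124% of its Astro-like level. Both lay far above Endo-like nuclei (49.5 ± 42.1 CPM). With no upper limit on genes, 376 rather than 183 nuclei were Epend-like, 154 of them in a cluster led by HTR2C, and Epend-like levels were 453 ± 441 CPM for SLC14A1, 175 ± 117 CPM for AQP4 and 419 ± 283 CPM for SLC1A3. Those of Astro-like nuclei were then 978 ± 428 CPM for SLC14A1 and 492 ± 111 CPM for AQP4.

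Among the neuronal classes SLC14A1 was highest in InN-like nuclei, at 39.8 ± 18.0 CPM against 9.10 ± 5.50 CPM in ExN-like and 4.50 ± 3.30 CPM in Gran-like nuclei. A UMI was held by 6.69% to 13.6% of InN-like and 1.15% to 3.96% of ExN-like nuclei, at library medians of 3934 to 4616 and 3414 to 5475 UMIs. The InN-like signal lay mostly in a cluster of 439 nuclei led by LAMP5, TCERG1L and MYO3A (pooled 108 CPM, 24.1% of nuclei) and one of 543 nuclei led by CNR1, ADARB2 and COL19A1 (54.7 CPM, 13.1%). Clusters led by SST and NPY or by VIP and CALB2 had 7.52 and 13.5 CPM, and a further cluster of 121 nuclei that also held LAMP5 among its leading genes had 15.6 CPM. The level in InN-like nuclei was 3.46% to 4.81% of that in Astro-like nuclei of the same library, so libraries high in one class were high in the other. The part of free RNA from astrocytes in it was not tested, and the corresponding range was 0% to 0.755% in Gran-like and 0.376% to 2.84% in ExN-like nuclei.

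A pair of the clusters left without a class also held these transcripts at raised levels. They contained 591 and 393 nuclei, with medians of 702 and 944 UMIs, and were led by housekeeping and mitochondrial genes or by globin genes. Pooled SLC1A2 was 241 and 251 CPM and SLC1A3 225 and 203 CPM in them. The level of SLC1A3 in them was thus a smaller part of its Astro-like level than was that of SLC1A2. A larger shallow cluster of 1692 nuclei (median 723.5 UMIs) had a pooled 74.5 CPM of SLC1A2, 88.4 CPM of SLC1A3 and 34.3 CPM of AQP4. No class was given to these nuclei and they entered no class comparison.

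Astro-like nuclei fell into 2 clusters, of 2942 nuclei and of 288 nuclei with high GFAP, the intermediate filament of reactive astrocytes (1717 ± 489 against 331 ± 68.2 CPM). AQP4 and SLC1A2 were higher in the GFAP-high cluster of every library, and SLC1A3 was lower in every library. AQP4 stood at 1050 ± 283 CPM in GFAP-high nuclei and 419 ± 97.7 CPM in the others, a ratio of 2.50. SLC1A2 was 967 ± 178 against 727 ± 63.7 CPM, a ratio of 1.33. SLC1A3 was 2237 ± 481 against 3253 ± 489 CPM, or 0.687 of the level in the other nuclei. The 2 glutamate transporters therefore differed between the clusters in opposite directions. KCNJ10 was higher in 5 of 6 libraries (121 ± 54.6 against 69.0 ± 21.9 CPM, on 63 UMIs in the GFAP-high cluster), and SLC4A4 was higher in 1 of 6. SLC7A11 (459 ± 87.4 against 454 ± 32.9 CPM), GLUL and GJA1 were each higher in 3 of 6 libraries. The clusters were formed by genes of these nuclei, so these values carry no test.

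**Figure D2:**
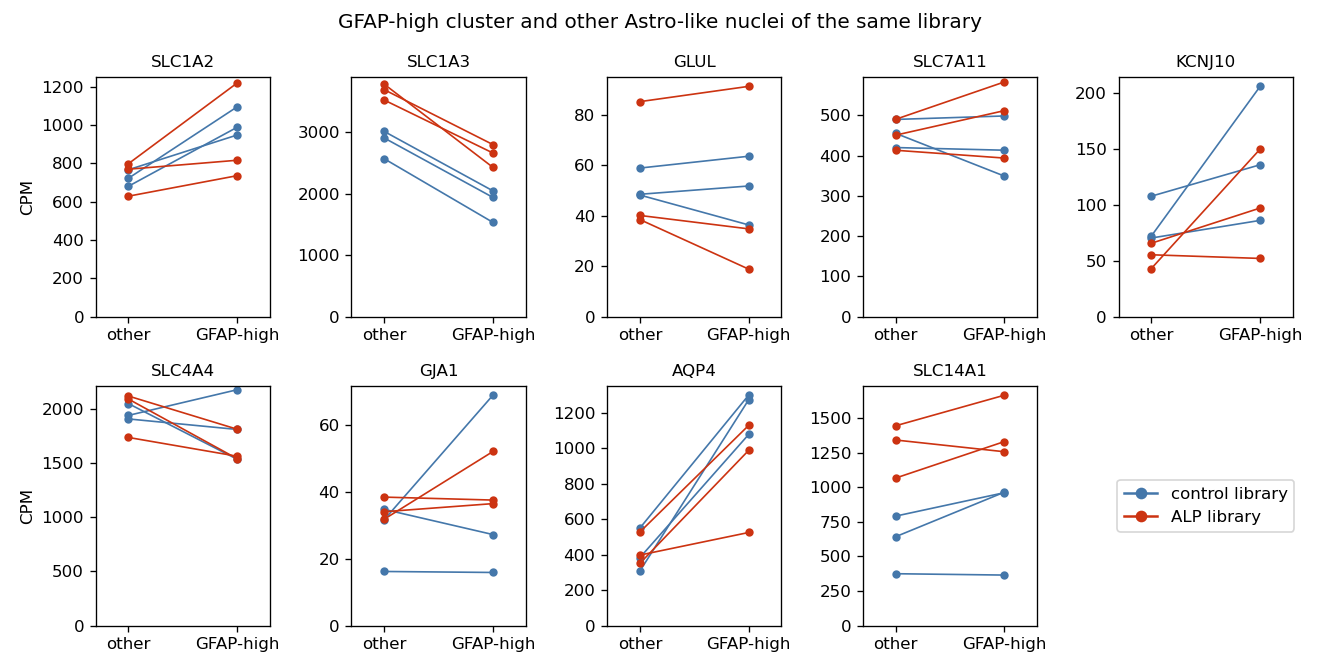
CPM of each gene in the GFAP-high cluster and in the other Astro-like nuclei, with 1 line for each of 6 libraries colored by group. Lines for AQP4 and SLC1A2 go up in all 6 libraries and lines for SLC1A3 go down in all 6. SLC14A1 and SLC1A3 are higher in every ALP than every control library in both sets of nuclei. KCNJ10 is lower in every ALP library in the other nuclei only. The share of all genes apart in this way was not computed for these clusters.

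The 5 genes whose level followed the sum of the 9 genes most closely over 60 sums of a class in a library were GLI3, ADD3, MSI2, EFEMP1 and GRAMD2B, with Pearson's r of 0.895, 0.879, 0.867, 0.860 and 0.856 among 7903 genes compared. GLI3 was 1 of the astrocyte markers by which clusters were named. The sum was mostly SLC1A3 and SLC4A4 in Astro-like nuclei, at a mean of 39.8% and 25.0% of its UMIs. Against the rest of the genes studied, Pearson's r was lowest for GLUL (0.150) and KCNJ10 (0.383) and highest for SLC1A2 (0.757), with no value for GJA1. Sums of 1 library share an animal and its depth, and the correlations describe class differences more than differences between animals.

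In Astro-like nuclei none of the 9 genes passed the test between ALP and control TSs, against 0.217% of 10141 genes tested. A gene was called at an adjusted p under 0.05 and a log2 fold change beyond 0.25 either way in edgeR's quasi-likelihood test on UMIs summed per library, with Benjamini-Hochberg adjustment over all genes tested. At an unadjusted p under 0.05 there were 2 of the 9, SLC14A1 and SLC1A3, beside 17% of genes tested. In TMM-scaled CPM all ALP libraries lay above all control libraries for 4 of the 9 (SLC14A1, SLC1A3, GJA1 and SLC7A11). For none did they all lie below. The corresponding shares of genes tested were 11.5% and 10.8%. The median log2 fold change of the 9 was 0.18, and that of all genes tested was 0.00. Values by library below are CPM of the UMIs of the genes tested in that class, scaled by edgeR's TMM factors (which correct for differences in RNA composition). They therefore run higher than CPM of all UMIs where few genes were tested, as in Mural-like nuclei (503 genes).

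**Figure D3:**
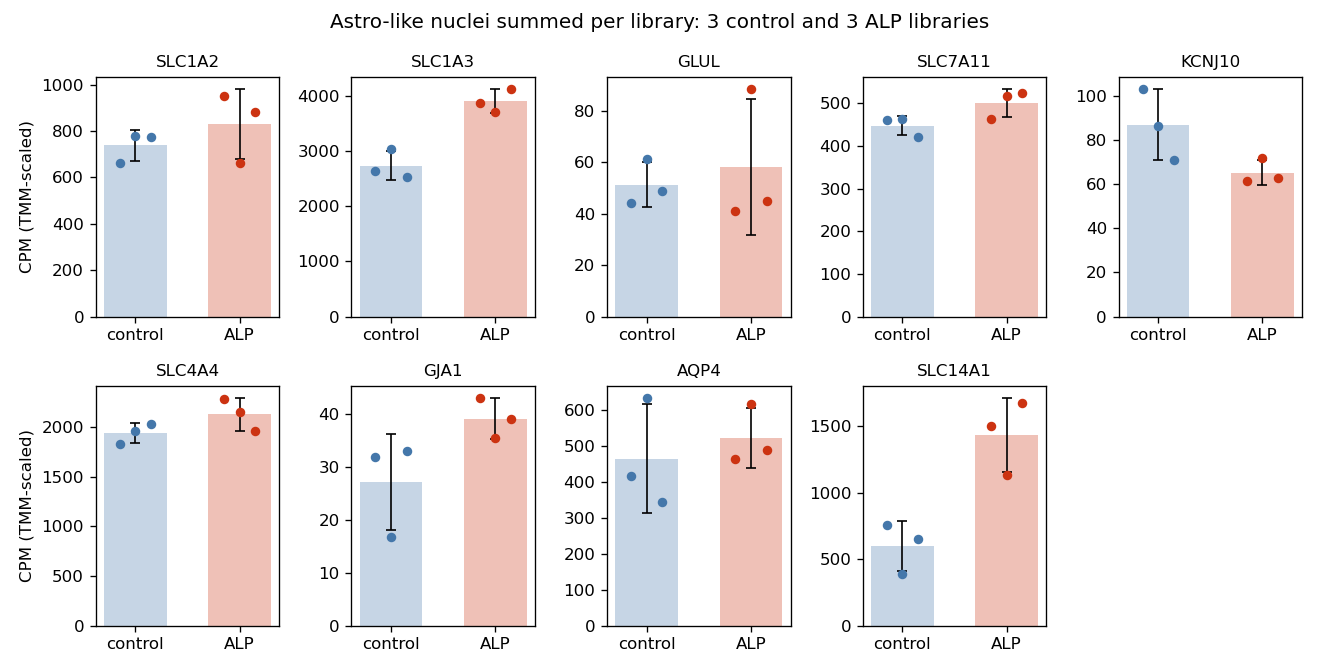
TMM-scaled CPM in Astro-like nuclei summed per library (points), with the group mean (bar) and SD (whisker) of 3 control and 3 ALP libraries, 1 panel for each gene. SLC14A1 and SLC1A3 show the clearest gap, with ALP libraries at 1133 to 1679 and 3710 to 4137, and KCNJ10 is the only panel with a lower ALP mean.

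SLC14A1, the urea channel, had the largest difference of the 9. It stood at 755, 387 and 655 CPM in control 1, 2 and 3 and at 1502, 1133 and 1679 CPM in ALP 1, 2 and 3. The lowest ALP library was above the highest control, and control 2 was the lowest of all. The fitted log2 fold change was 1.26 ± 0.24 (SE, n = 3 and 3, 95% interval 0.74 to 1.77), and it missed the threshold with an adjusted p of 0.0652 by edgeR's quasi-likelihood test with Benjamini-Hochberg adjustment. The adjusted p fell to 0.000276 with DESeq2, 1.37e-06 with no filter on low counts and 0.0468 after each nucleus was thinned to 1000 UMIs, and it was 0.0433 without control 1, 0.0192 without ALP 2, 0.135 without control 3, 0.218 without ALP 1 and 0.318 without ALP 3 in edgeR. Without control 2, the library that stood apart, the log2 fold change was 1.03 with an edgeR adjusted p of 0.0341. Several of these settings called more genes of every kind in Astro-like nuclei than the 22 of 10141 in the main fit. DESeq2 called 218 of 10141, no filter 657 of 37553, and the fits without control 2 and without ALP 2 called 170 of 11153 and 226 of 10395.

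Several measures moved with the groups in these nuclei. Astro-like nuclei of control TSs had library medians of 1998 to 2260 UMIs and those of ALP TSs 1552 to 1744. At an equal 1000 UMIs per nucleus the log2 fold change of SLC14A1 was 1.19. The GFAP-high cluster held 9.12%, 8.31% and 3.84% of Astro-like nuclei in the control libraries and 11.4%, 10.6% and 12.1% in the ALP libraries, and without that cluster the log2 fold change was 1.24. GFAP within that cluster went the other way, at 2159, 2032 and 2172 CPM in control and 1013, 1653 and 1276 CPM in ALP libraries. In the other Astro-like nuclei it overlapped, at 392, 376 and 291 CPM in control and 253, 407 and 267 CPM in ALP libraries. GFAP helped to define the cluster, so those shares are given only beside this result. The 8 ependymal markers summed to 335 to 405 CPM in control and 416 to 674 CPM in ALP Astro-like nuclei, with 6 to 8 and 5 to 8 of them detected, and were at 6791 to 8528 CPM in Epend-like nuclei. The 6 endothelial markers (4 to 6 detected in control, 4 to 5 in ALP) went the other way, at 49.8 to 61.7 CPM in control and 30.1 to 46.5 CPM in ALP, as did the 10 InN markers (6 to 9 and 6 to 8 detected), at 122 to 147 and 80.9 to 115 CPM. The part of depth, of the GFAP-high share and of the sources of these markers in the result was not tested.

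The share of Astro-like nuclei with an SLC14A1 UMI differed in the same direction. After thinning to 1000 UMIs, which kept the 90.9% to 97.0% of nuclei of a library at or above that depth, it was 40.3 ± 12.3% in control and 63.8 ± 7.04% in ALP libraries (SD, n = 3), and the groups did not overlap. Gran-like nuclei, which should lack the gene, had 0% to 0.787% at the same 1000 UMIs. The exact two-sided permutation test gave p = 0.1, the smallest that 3 against 3 libraries allow, and 0.3 after Benjamini-Hochberg adjustment over the genes studied. Without control 2 the thinned shares differed by 16.8 percentage points. With all libraries but without thinning the shares differed by 17.3 percentage points.

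The glutamate genes differed less. SLC1A3 stood at 2644, 3037 and 2540 CPM in the control libraries and at 3873, 3710 and 4137 CPM in the ALP libraries. The groups were apart by more than either spread, with a log2 fold change of 0.51 ± 0.13 and an edgeR adjusted p of 0.0885. No alternative brought SLC1A3 past the threshold in Astro-like nuclei, where edgeR and DESeq2 adjusted p lay between 0.0520 and 0.361. Its share of nuclei after thinning was 88.1 ± 2.23% in control and 93.3 ± 0.615% in ALP libraries (exact permutation p = 0.1, the smallest possible, and 0.3 adjusted). The other glutamate transporter, SLC1A2, was at 662, 779 and 774 CPM in control and 950, 662 and 884 CPM in ALP libraries. ALP 2 lay level with the lowest control, and the log2 fold change was 0.17 ± 0.17 (95% interval -0.20 to 0.54).

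GLUL stood at 44.0, 61.2 and 48.6 CPM in control and 40.9, 88.6 and 45.0 CPM in ALP libraries. Only ALP 2 lay above the controls, and without it the log2 fold change of 0.26 ± 0.30 turned to -0.22. For SLC7A11 the values were 459, 462 and 421 CPM in control and 464, 518 and 523 CPM in ALP libraries. The groups did not overlap, by a narrow margin, and the log2 fold change was 0.17 ± 0.15 with an edgeR adjusted p of 0.600. In CPM of all UMIs, without TMM scaling, the SLC7A11 libraries overlapped, with group means of 453 and 457 CPM. Its share of nuclei with a UMI, not thinned, was 57.8 ± 1.59% in control and 48.8 ± 4.88% in ALP libraries, lower without overlap at the lower ALP depth, and at 1000 UMIs it was 35.3 ± 2.28% and 34.3 ± 2.82%, which overlapped.

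Of the ion carriers, KCNJ10 was the only one of the 9 genes with a negative estimate. It stood at 103, 86.3 and 71.1 CPM in control and 61.4, 71.6 and 62.7 CPM in ALP libraries. ALP 2 overlapped with control 3, and the log2 fold change was -0.40 ± 0.21 (95% interval -0.86 to 0.06), with an edgeR adjusted p of 0.361. Its share of thinned nuclei with a UMI, 8.05 ± 1.84% in control and 5.38 ± 1.31% in ALP libraries, did not overlap (exact permutation p = 0.1, and 0.3 adjusted). SLC4A4 stood at 1835, 1964 and 2033 CPM in control and 2289, 2149 and 1957 CPM in ALP libraries, which overlapped, and its log2 fold change was 0.13 ± 0.13. In CPM of all UMIs, without TMM scaling, its group means were 1963 and 1943 CPM, in the opposite order.

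GJA1 was at 31.9, 16.7 and 33.0 CPM in control and 43.2, 35.4 and 39.0 CPM in ALP libraries. The groups did not overlap, but control 2 lay well below the rest. The log2 fold change of 0.46 ± 0.29 had an edgeR adjusted p of 0.454 and was 0.25 without control 2. The share of nuclei with a GJA1 UMI overlapped after thinning, at 2.71 ± 0.974% in control and 3.30 ± 0.243% in ALP libraries. Without thinning the shares were 5.89 ± 1.78% and 5.91 ± 0.414%, which also overlapped. AQP4 was at 417, 635 and 343 CPM in control and 464, 618 and 487 CPM in ALP libraries. Its 2 highest libraries were 1 of each group, control 2 and ALP 2, and the log2 fold change of 0.18 ± 0.22 (95% interval -0.30 to 0.67) became -0.01 without control 3.

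In the other 9 classes, too, none of the genes tested was called by edgeR, with 2 to 7 of the 9 tested in a class. The share of all genes called was 4.36% in Oligo-like, 1.6% in OPC-like, 0.822% in Micro-like and 1.22% in Gran-like nuclei, and 0% in Endo-like, Mural-like, Epend-like, ExN-like and InN-like nuclei. In those 5 classes edgeR gave 80, 9, 60, 2271 and 2326 genes at an unadjusted p under 0.05, and DESeq2 called 1, 0, 0, 308 and 470. The classes share their 6 animals, so values of a gene in several classes are not independent of each other.

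**Figure D4:**
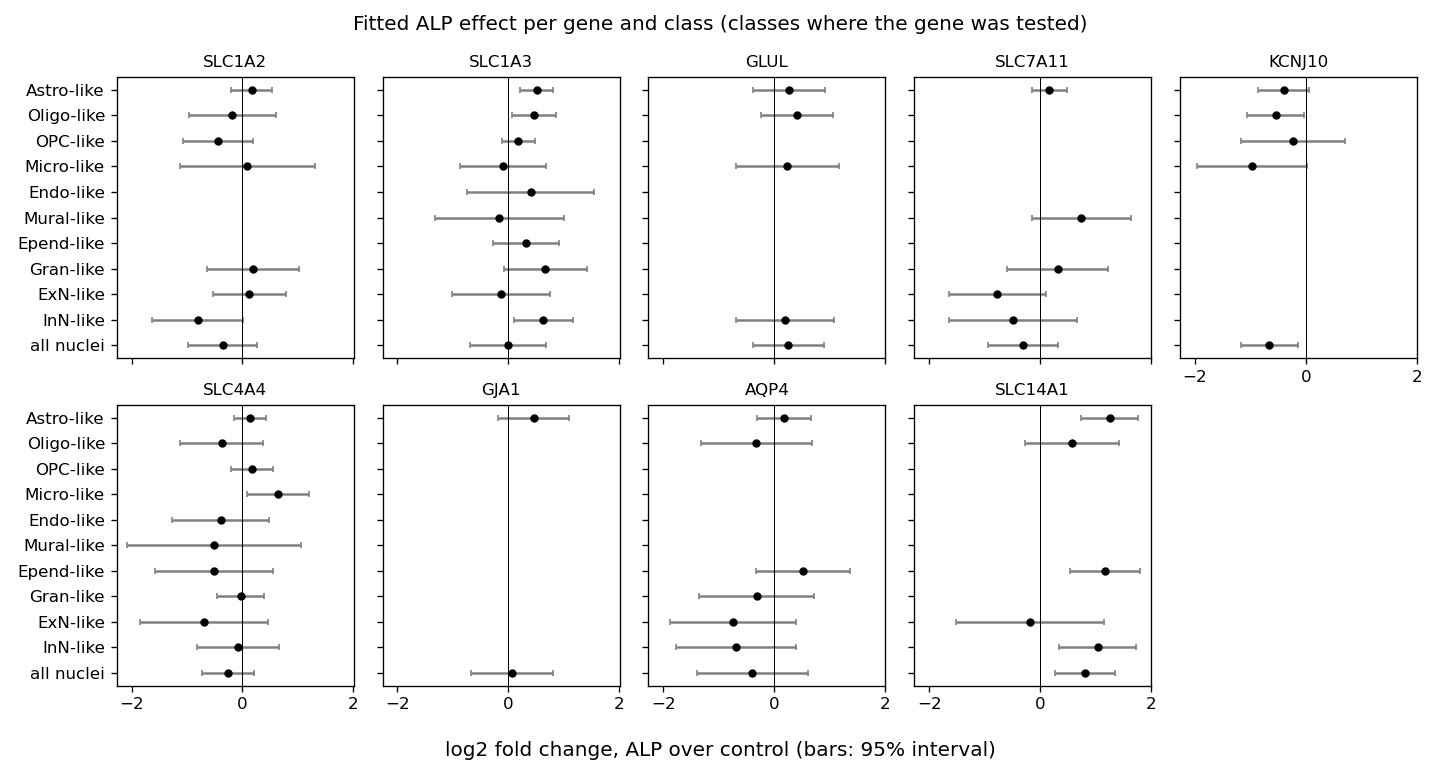
Fitted log2 fold change of ALP over control with its 95% interval (horizontal axis) for each gene in each class where it was tested and in all kept nuclei summed (vertical axis). SLC14A1 lies right of 0 in Astro-like, Epend-like and InN-like nuclei and KCNJ10 lies left of 0 in each class where it was tested, although its OPC-like estimate turned positive without control 1 or ALP 1.

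SLC14A1 was higher in every ALP than every control library in Epend-like, InN-like and Oligo-like nuclei as well, beside 6.65%, 11.2% and 12.5% of genes tested there. Epend-like nuclei, 19 to 51 in a library, had 931, 681 and 1450 TMM-scaled CPM in control and 1973, 2439 and 2454 in ALP libraries. The log2 fold change was 1.18 ± 0.30 with an edgeR adjusted p of 0.296, and it ranged from 0.94 to 1.44 with 1 library left out. In InN-like nuclei the values were 34.0, 17.5 and 29.0 CPM in control and 51.5, 38.8 and 80.8 CPM in ALP libraries, with a log2 fold change of 1.05 ± 0.31 and an edgeR adjusted p of 0.108. With 1 library left out the InN-like log2 fold change ranged from 0.77 to 1.29. With no filter on low counts edgeR called SLC14A1 in InN-like nuclei (adjusted p of 0.000564). Oligo-like nuclei showed 0.58 ± 0.39 on 111 UMIs, and ExN-like nuclei -0.19 ± 0.59, whose sign depended on the setting. The Oligo-like level of SLC14A1 was low, at a mean of 8.89 CPM of all UMIs beside 956 in Astro-like nuclei. The part of free RNA from astrocytes in the InN-like and Oligo-like differences was not tested.

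SLC1A3 likewise did not overlap between groups in Oligo-like, OPC-like and InN-like nuclei, higher in ALP libraries each time, beside 12.5%, 9.27% and 11.2% of genes. It stood at 90.6, 104 and 84.8 CPM in control and 141, 107 and 131 CPM in ALP libraries in Oligo-like nuclei, a log2 fold change of 0.46 ± 0.18 with an edgeR adjusted p of 0.173. OPC-like nuclei gave 0.18 ± 0.14, and InN-like nuclei 0.63 ± 0.24 with an edgeR adjusted p of 0.185. The InN-like level was low, at a mean of 35.6 CPM of all UMIs beside 22.2 in Gran-like and 3159 in Astro-like nuclei. The part of free RNA from astrocytes in these values was not tested. In Gran-like nuclei SLC1A3 was called only when the upper limit on genes was lifted, with a log2 fold change of 1.04 and an edgeR adjusted p of 0.0461.

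KCNJ10 had a negative estimate in each of the 4 classes where it was tested. In Oligo-like nuclei it stood at 64.4, 61.2 and 40.9 CPM in control and 37.8, 40.4 and 33.8 CPM in ALP libraries. The groups did not overlap, by a narrow margin, beside 10.9% of genes lower without overlap, and the log2 fold change was -0.54 ± 0.23 with an edgeR adjusted p of 0.206. Micro-like nuclei gave -0.97 ± 0.47 on 55 UMIs, again without overlap (7.86% of genes were lower in this way), which shrank to -0.15 with no upper limit on genes, and OPC-like nuclei -0.23 ± 0.43, a sign that turned without control 1 (0.29) or ALP 1 (0.08).

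SLC4A4 and SLC7A11 gave no call outside Astro-like nuclei either. SLC4A4 in Gran-like nuclei was at 881, 558 and 553 CPM in control and 705, 592 and 677 CPM in ALP libraries, with a log2 fold change of -0.03 ± 0.19 whose sign depended on the setting. In Micro-like nuclei it did not overlap (8.94% of genes were higher in this way), with 173, 147 and 116 CPM in control and 212, 180 and 301 CPM in ALP libraries, a log2 fold change of 0.64 ± 0.26 and an edgeR adjusted p of 0.288. With no upper limit on genes this was 0.08, and most of these UMIs lay in the GPNMB-led cluster. SLC7A11 in Mural-like nuclei was at 1430, 1667 and 931 CPM in control and 2820, 1679 and 2133 CPM in ALP libraries. These did not overlap by a narrow margin (3.18% of genes were higher in this way), with a log2 fold change of 0.75 ± 0.41 from sums of 13 or more nuclei. Most of this signal lay in the LAMA2-led cluster, and the part of the mix of Mural-like clusters in the difference was not tested. In ExN-like nuclei SLC7A11 was lower without overlap (11.3% of genes), with a log2 fold change of -0.77 ± 0.39 on 67 UMIs.

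Whether the ALP effect differed between Astro-like and another class was tested as an interaction of class and group, with library as a block. Not one of the 9 genes was called in any of 5 pairs, beside 0.337%, 0.0178%, 0.0719%, 0.0301% and 0.0969% of genes for Oligo-like, OPC-like, Gran-like, ExN-like and InN-like nuclei. SLC14A1 differed in log2 fold change by 0.42 ± 0.34 from Oligo-like, 0.24 ± 0.23 from InN-like and 1.26 ± 0.58 from ExN-like nuclei, with edgeR adjusted p of 0.812, 0.842 and 0.619. Without control 1 the last reached 2.18 with an edgeR adjusted p of 0.0279. SLC1A2 differed by 0.99 ± 0.32 from InN-like nuclei, where its own log2 fold change was -0.81 ± 0.37, with an edgeR adjusted p of 0.320.

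When all kept nuclei of a library were summed, none of the 9 genes was called, nor was any of 22749 genes (0%), with 5323 at an unadjusted p under 0.05 in edgeR and 1740 called by DESeq2. These sums move with the share of astrocytes, which made up 7.59% to 19.4% of kept nuclei in a library, and fewer astrocytes and less RNA per astrocyte cannot be told apart in them. SLC14A1 gave a log2 fold change of 0.81 ± 0.24 with an edgeR adjusted p of 0.0983, and DESeq2 called it with an adjusted p of 0.0343. KCNJ10 was at 32.1, 26.3 and 26.2 CPM in control and 13.0, 22.4 and 18.3 CPM in ALP libraries. It was the only one of the 9 without overlap (14.4% of genes were lower in this way), with a log2 fold change of -0.66 ± 0.23 and an edgeR adjusted p of 0.134. SLC1A3 (-0.01 ± 0.30) and SLC1A2 (-0.35 ± 0.28) had wide intervals here and turned positive with the upper limit on genes lifted.

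Around the 9 genes, 57 further genes in 6 lists of the same pathways were examined, of which 56 had a row and 38 were tested in Astro-like nuclei. None of the 38 was called, 8 were higher and 1 was lower without overlap, and their median log2 fold change was 0.18, beside 0.217% of all genes called, 11.5% higher and 10.8% lower without overlap and a median of 0.00. The 14 genes of the glutamate and glutamine cycle had none of their 12 tested members apart between groups, with a median of -0.26. Of the list on water, volume and endfoot anchoring, 4 of 7 tested genes were higher without overlap, namely AQP9, DTNA, DMD and HEPACAM, and AQP11 was lower, beside the same 11.5% and 10.8% of all genes. DMD and DTNA encode dystrophin and dystrobrevin of the complex that anchors aquaporin-4 at endfeet. DTNA, given after its values were seen, stood at 1290, 1283 and 1254 CPM in control and 1750, 1612 and 1686 CPM in ALP libraries, with a log2 fold change of 0.40 ± 0.13 and an edgeR adjusted p of 0.151.

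The list on cystine and glutathione held the largest positive estimates, though none passed the test. SLC3A2, the heavy chain that pairs with SLC7A11, was at 63.0, 66.8 and 38.0 CPM in control and 132, 117 and 95.8 CPM in ALP libraries, with a log2 fold change of 1.05 ± 0.24 and an edgeR adjusted p of 0.0692. SLC7A10, a neutral amino acid transporter of astrocytes that also pairs with SLC3A2, was at 134, 175 and 73.6 CPM in control and 336, 240 and 232 CPM in ALP libraries. All its ALP libraries were above its controls, with a log2 fold change of 1.09 ± 0.28 and an edgeR adjusted p of 0.0878. DESeq2 called both, with adjusted p of 0.0295 and 0.0189, and edgeR called SLC7A10 without control 2 (adjusted p of 0.0421). After thinning to 1000 UMIs SLC3A2 was at 0.75 and SLC7A10 at 1.16. AQP11, an intracellular aquaporin, was the only gene lower without overlap, at 31.1, 29.2 and 33.0 CPM in control and 25.0, 14.8 and 10.6 CPM in ALP libraries, with a log2 fold change of -0.99 ± 0.33 and an edgeR adjusted p of 0.159.

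The lists on potassium and sodium, on gap junctions and on bicarbonate and acid had 1 of 6, 0 of 2 and 0 of 5 tested genes apart between groups, with medians of 0.34, -0.15 and 0.47. The 1 was KCNK1, a potassium channel, at 0.53 ± 0.26. In other classes 2 list genes passed the test, 1 of 33 tested in Oligo-like nuclei beside 4.36% of all genes and 1 of 34 in OPC-like nuclei beside 1.6%, shares that are read as no result about the lists. They are named although the naming rule covers Astro-like nuclei. GPX4, a glutathione peroxidase that reduces lipid peroxides, rose in Oligo-like nuclei from 81.7, 115 and 92.6 CPM in control to 182, 153 and 166 CPM in ALP libraries (log2 fold change 0.84 ± 0.19, edgeR adjusted p of 0.0306). KCNJ16, the Kir5.1 subunit that pairs with KCNJ10, rose in OPC-like nuclei from 17.6, 22.6 and 34.4 CPM to 67.2, 62.3 and 59.9 CPM (1.34 ± 0.29, edgeR adjusted p of 0.0457). Each call was lost when any of 4 libraries was left out, control 1, control 3, ALP 1 and ALP 3 for GPX4 (adjusted p of 0.0676, 0.128, 0.127 and 0.163 in edgeR) and control 1 and all 3 ALP libraries for KCNJ16 (0.0925, 0.180, 0.0919 and 0.240). The KCNJ16 call was also lost with marked doublets removed (edgeR adjusted p of 0.0517). GPX4 was also higher without overlap in Astro-like, OPC-like, Micro-like, ExN-like and InN-like nuclei and in all nuclei summed, a feature singled out after its values were seen. Of all genes, 11.5%, 9.27%, 8.94%, 10.8%, 11.2% and 12.8% were higher without overlap in these comparisons.

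The annotation carries 19 antisense features of the 9 genes, of which 17 had UMIs, 17001 in all kept nuclei and 11518 of these in Astro-like nuclei, and 12 were highest there. These features were not kept out of the clustering, so their levels across classes are a description. How strand was used in counting is not given in the sources used here, so UMIs of a gene and its antisense partner may not be fully separated. Of 10 tested in Astro-like nuclei 1 was called, beside 0.217% of all genes, namely SLC1A3-AS-2, which fell from 17, 12 and 25 UMIs in control to 1, 3 and 1 UMIs in ALP libraries. It held 59 UMIs in Astro-like nuclei, against 581 for SLC1A3-AS-3 and 4358 for SLC1A3-AS-5, neither of which was called. The log2 fold change of SLC1A3-AS-2 was -2.91 ± 0.51 with an edgeR adjusted p of 0.0494, opposite in sign to the estimate for SLC1A3. The call was lost in most alternatives, among them without control 1, control 3, ALP 1, ALP 2 or ALP 3 (edgeR adjusted p of 0.0609, 0.162, 0.218, 0.0539 and 0.318), and DESeq2 gave no value for it. SLC7A11-AS-1 had 347 of its 553 Astro-like UMIs in control 3 alone. Intergenic features named after the 9 genes added 35 rows, 16 of them with UMIs and 464 UMIs in Astro-like nuclei.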

How the data were processed

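Hippocampal nuclei of 3 control and 3 ALP TSs were profiled by 10x 3' single-nucleus RNA sequencing. The authors deposited UMI counts per gene and barcode for each library, made with Cell Ranger (version 3.1.0 in the submitters' processing notes, 6.1.2 in the matrix headers). The reference came from the tree shrew database, per the study's methods, and its build and the use of strand in counting are not given in the sources used here. No column of per-sample values was left unused (0).

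Nuclei with at least 200 and under 2500 genes and under 5% mitochondrial UMIs were kept. They were clustered with scanpy 1.11.5 and leidenalg 0.10.2 (Python 3.11.15, scipy 1.17.1) on 2000 variable genes without the 10 genes studied, 30 principal components, 20 neighbors and resolution 2. A cluster was named from fixed markers when at least 3 had a UMI in 3% of nuclei and a 1.5-fold higher level than elsewhere. Clusters under 20 nuclei, with 15% or more marked doublets, or under 0.5 of their own libraries' depth without a leading marker stayed unnamed, limits set after seeing the data. So did clusters whose leading genes held more markers of another class, with Gran and ExN not set against each other. Clusters led by at least 3 mitochondrial or globin genes without a leading marker were also left unnamed. ExN was dropped wherever another class also qualified. Doublets were marked by score at 0.8% per 1000 barcodes and were removed only in an alternative.

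UMIs were summed per library and class (at least 10 nuclei) and tested with edgeR 4.0.16 (R 4.3.3), with TMM scaling, a minimum count of 10 and the quasi-likelihood test, adjusted by Benjamini-Hochberg over all genes tested. DESeq2 1.42.0, upper-quartile scaling, no filter, a block for the replicate number, leaving out a library at a time, no upper limit on genes, doublets removed, resolution 1 and the 10 genes kept for clustering were the alternatives. The fits without the GFAP-high cluster and with nuclei thinned to 1000 UMIs were chosen after seeing the data. On simulated counts of 10141 genes in Astro-like nuclei, with 200 changed, the test recovered 81% of 4-fold and 20% of 2-fold changes, with 6 false calls. Each library is 1 animal, so p-values weigh a difference between groups against the spread between these 6 animals. Animal and library effects cannot be told apart in that spread.

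The 10 genes, the pathway lists and the tests were chosen with earlier results of these data known. Of list genes tested in Astro-like nuclei, those named were any called and the 2 largest rises and 2 largest falls without overlap between groups. The likeness genes were the 5 with the highest Pearson correlation of log2(CPM + 1) at a mean of at least 10 CPM. Figures were drawn with matplotlib 3.10.9.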

Additional observations from a re-analysis of the deposited data

How the results depend on the processing

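Of the 790 results under alternatives, 638 stayed the same and 19 turned sign. A call was gained in 16 and lost in 22, and the remaining 95, all counts, levels or differences in shares, moved. For a tested gene, staying the same meant keeping the direction and side of the threshold. A gene not called in the main fit thus stayed the same by remaining uncalled, so the 638 are no measure of how stable calls were. The calls lost were those of GPX4 in Oligo-like, KCNJ16 in OPC-like and SLC1A3-AS-2 in Astro-like nuclei. They were lost in 5, 6 and 11 of 14 alternatives each. For a count it meant staying within 1.5 times. For a level in Astro-like nuclei or a difference in shares of nuclei it meant staying within the SD of the main result. Genes called in Astro-like nuclei numbered 22, and were 218 with DESeq2, 657 with no filter, 8 with no upper limit on genes, 13 with marked doublets removed, 14 without the GFAP-high cluster and 2 to 226 with 1 library left out. With no filter 1312 genes were called in Oligo-like (505), 555 in OPC-like (139), 231 in Micro-like (52), 10 in Endo-like, 735 in Gran-like (127), 952 in ExN-like and 1434 in InN-like nuclei, and 3386 in all nuclei summed. DESeq2 called 32 in Micro-like, 1 in Endo-like, 201 in Gran-like, 308 in ExN-like and 470 in InN-like nuclei and 1740 in all nuclei summed. No upper limit gave 0 in Micro-like, 556 in Gran-like, 2 in ExN-like and 382 in InN-like nuclei and 1 in all nuclei summed. Removing doublets gave 41 in OPC-like, 16 in Micro-like and 1 in Mural-like nuclei, and upper-quartile scaling 182 in InN-like nuclei. With 1 library left out the counts were 1 to 1027 in Oligo-like, 0 to 412 in OPC-like, 0 to 342 in Micro-like, 0 to 4 in Endo-like, 0 to 1 in Mural-like, 0 to 6 in Epend-like, 0 to 386 in Gran-like, 0 to 204 in ExN-like and 0 to 503 in InN-like nuclei, and 0 to 2245 in all nuclei summed. The highest of the counts for all nuclei came without control 2. The causes were not tested.

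Over the 10 classes, 0 of the genes studied were called, and 0 to 1 with 1 library left out. DESeq2 called 1, SLC14A1 in Astro-like nuclei, beside 218 of 10141 genes. No filter gave 2, SLC14A1 in Astro-like and InN-like nuclei, beside 657 of 37553 and 1434 of 41132. No upper limit gave 1, SLC1A3 in Gran-like nuclei, beside 556 of 12841. Resolution 1 gave 1, SLC14A1 in Micro-like nuclei (log2 fold change 1.61, edgeR adjusted p of 0.0427), beside 38 of 5100. At resolution 2 a cluster of 27 nuclei with microglial and astrocyte markers, 48.1% marked as doublets, stayed unnamed. Resolution 1 had no such cluster, and the part of doublets in the Micro-like call was not tested. In all nuclei summed 1 of the genes studied was called with DESeq2, beside 1740 of 22749 genes, and 1 with no filter, beside 3386 of 54978. List genes called in Astro-like nuclei were 2 with DESeq2 and 2 with no filter, beside the counts of all genes given above. With 1 library left out they were 0 to 1, and the interaction gave 0 to 1 of the genes studied. Shares of nuclei did not overlap for 3 genes, for 5 without thinning (SLC4A4 and SLC7A11 then also lower in ALP) and for 3 to 7 with 1 library left out. Groups that lie apart give an exact permutation p of 0.1 with all libraries and only 0.2 with 1 left out. The corresponding share over all genes was not computed, so these counts are read as no result about the genes. The difference for SLC1A3 was 5.15 percentage points, 9.18 at 500 UMIs and 2.12 without thinning, and for KCNJ10 it was -2.67 and -7.19 without thinning.

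Levels moved by over 1.5 times with no upper limit on genes for SLC4A4 in ExN-like (71.6 to 24.6 CPM) and Micro-like nuclei (166 to 270 CPM) and for SLC7A11 (128 to 58.5 CPM), SLC4A4 (269 to 175 CPM) and KCNJ10 (63.9 to 38.0 CPM) in Epend-like nuclei, and at resolution 1 for SLC1A3 in Micro-like nuclei (129 to 261 CPM).

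The log2 fold change of SLC4A4 in Gran-like nuclei turned to 0.049 with no filter and ranged from -0.14 to 0.25 with 1 library left out. SLC1A3 in all nuclei turned to 0.036 with no filter and 0.38 with no upper limit (-0.21 to 0.31 with 1 library left out), and SLC1A2 to 0.11 with no upper limit. SLC14A1 in ExN-like nuclei turned to 0.088 with no upper limit, 0.013 with doublets removed and 0.19 with the 10 genes kept for clustering (-0.76 to 0.58 with 1 library left out). With 1 library left out the ranges also crossed 0 for KCNJ10 in OPC-like (-0.64 to 0.29), GLUL in Astro-like (-0.22 to 0.46) and AQP4 in Astro-like nuclei (-0.0080 to 0.47) and for SLC14A1 between Astro-like and Oligo-like nuclei (-0.0061 to 0.91).

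Deviations of same-numbered libraries correlated at -0.08 to 0.06 in Astro-like, Oligo-like and OPC-like nuclei, the classes checked, so the numbers were not taken to pair the libraries. With the number as a block, 6 genes were called in Astro-like, 144 in Oligo-like, 2 in OPC-like, 0 in Micro-like, 3 in Epend-like, 15 in Gran-like, 1 in ExN-like and 1 in InN-like nuclei. One of the genes studied was then called, SLC14A1 in Astro-like nuclei (edgeR adjusted p of 0.0331), and SLC4A4 in Gran-like nuclei turned to 0.015. GPX4, KCNJ16 and SLC1A3-AS-2 lost their calls under the block (edgeR adjusted p of 0.0879, 0.108 and 0.102).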
